A study of Mus musculus with 4 samples.

Results

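The genes described here encode the mitochondrial ribosomal proteins of mouse liver. They were chosen by name alone: probe sets that the array's annotation gives 1 gene symbol beginning with Mrpl (large subunit) or Mrps (small subunit) and a number, with each gene measured by its brightest probe set. This gave 76 genes, 47 of the large and 29 of the small subunit, out of 18193 genes with a single symbol on the array. All 76 lay above the filter on dim genes, a mean signal above 204, which 11993 genes of the array passed. Their signals ran over the 4 arrays between 234 and 4309 units.

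The treated group, labelled delta MET + EGFRi, consisted of mice of the genotype Metff/ff:ERCre+/+, in which tamoxifen switches on a Cre recombinase that removes exon 16 of the Met receptor gene. They received tamoxifen (100 μl at 10 mg/ml in corn oil) into the peritoneum on 5 days, rested for 4 days and then ate a diet with the EGFR inhibitor canertinib, aimed at 80 mg/kg/day. Control mice were littermates of the same genotype given corn oil alone. The deletion was systemic, and ages are not given in the labels. Livers were taken at day 7 and day 10, counted in treated mice from the start of the canertinib diet, and 1 array was hybridised with pooled RNA for each combination of group and day. Each group therefore had 2 arrays of different days, a pool of an unstated number of animals carries no spread between animals, and the p-values measure only the spread between these arrays. Effects of Met deletion, tamoxifen, canertinib and feeding cannot be told apart. In bulk liver RNA, fewer cells of a type and less RNA per cell cannot be told apart either.

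The mitochondrial ribosome translates the few messages of mitochondrial DNA, which encode core subunits of the respiratory chain and of ATP synthase. Its protein subunits are encoded in the nucleus, made in the cytosol and imported. Some descend from bacterial ribosomal proteins and keep their numbers, and others were added in mitochondria. The large subunit joins amino acids and passes the growing chain through an exit tunnel, and the small subunit binds the message and decodes it. Hepatocytes, the main cells of liver, are rich in mitochondria.

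The promoters of 4 of these genes are shown because the genes lay among the lowest (Mrpl14, Mrpl39, Mrps22) or highest (Mrps27) members and because their promoters carry letters bound by factors known to act on nuclear genes for mitochondrial proteins. The capitals mark the NRF1 motif (GCGCA, any base, GCGC) in Mrpl14 and Mrpl39, and CCGGAAGT, recognised by ETS factors, in Mrps22. In Mrps27 they mark the ETS letters on the other strand, ACTTCCGG, and AAGATGGCG, recognised by YY1. The promoters of the members lower than Mrpl14 over both days (Mrps31, Mrpl22, Mrpl16, Mrps15 and Mrpl1) held none of the NRF1, ETS or YY1 letters. The promoters shown were picked for their letters, and a link between letters and lower signal was not tested. Each sequence runs from 250 bases before to 50 bases after the start of the gene in the RefSeq table of GRCm38.p6, and is written on the strand of the gene. Mrpl14 is at chr17:45686099-45686398 (+), Mrpl39 at chr16:84735195-84735494 (-), Mrps22 at chr9:98601630-98601929 (-) and Mrps27 at chr13:99344536-99344835 (+).
Mrpl14: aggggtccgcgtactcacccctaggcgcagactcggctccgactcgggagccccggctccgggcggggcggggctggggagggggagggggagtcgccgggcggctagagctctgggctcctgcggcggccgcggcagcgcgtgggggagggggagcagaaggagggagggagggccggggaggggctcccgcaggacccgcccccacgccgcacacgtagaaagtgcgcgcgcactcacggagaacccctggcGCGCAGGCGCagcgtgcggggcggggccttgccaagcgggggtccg
Mrpl39: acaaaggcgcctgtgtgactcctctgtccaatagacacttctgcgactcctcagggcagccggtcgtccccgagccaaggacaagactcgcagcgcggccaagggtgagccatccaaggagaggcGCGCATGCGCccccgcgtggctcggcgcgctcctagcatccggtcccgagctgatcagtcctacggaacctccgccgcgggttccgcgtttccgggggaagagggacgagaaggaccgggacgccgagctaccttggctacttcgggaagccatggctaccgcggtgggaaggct
Mrps22: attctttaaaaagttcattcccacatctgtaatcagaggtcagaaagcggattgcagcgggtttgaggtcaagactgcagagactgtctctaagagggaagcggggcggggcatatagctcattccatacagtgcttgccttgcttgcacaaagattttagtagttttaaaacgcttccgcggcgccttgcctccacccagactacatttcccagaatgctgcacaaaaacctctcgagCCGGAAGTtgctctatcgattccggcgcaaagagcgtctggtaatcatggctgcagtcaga
Mrps27: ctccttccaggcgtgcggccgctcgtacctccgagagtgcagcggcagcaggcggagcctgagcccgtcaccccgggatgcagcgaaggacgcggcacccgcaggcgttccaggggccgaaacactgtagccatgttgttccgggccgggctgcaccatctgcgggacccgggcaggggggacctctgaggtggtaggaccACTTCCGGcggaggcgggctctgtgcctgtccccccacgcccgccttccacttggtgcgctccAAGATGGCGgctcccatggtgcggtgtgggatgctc

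Promoters were found for 67 of the 76 genes, in 73 entries. Read on both strands, the NRF1 letters stood in 16.4% of these 73 promoters (12), against 4.6% of all 32851 promoters in the table and 7.43% of 18110 promoters of genes on the array. The ETS letters also stood in 16.4% (12), against 3.89% of all promoters and 5.83% of those of array genes. The YY1 letters stood in 11% (8), against 1.4% and 2.09%. The letters TATAAA of the TATA box stood in 6.85% (5), against 13.6% and 9.77%, and TCAAGGTCA, bound by ERR receptors, in 0 of 73, against 0.423% and 0.342%. In all, 30 of the 73 entries held the NRF1, ETS or YY1 letters. Among the 36 entries of genes whose treated arrays both lay below both control arrays, 7 held the NRF1, 3 the ETS and 4 the YY1 letters. Among the other 37 entries 5 held the NRF1, 9 the ETS and 4 the YY1 letters. These are matches of letters in sequence, with no measurement of binding.

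Most mitochondrial ribosomal protein genes had somewhat lower signals in treated than in control livers, and none of these differences passed the test for a single gene. Over both days the median log2 difference, treated minus control, was -0.22 over the 76 genes, a signal 1.16 times lower, beside -0.02 over the 11993 genes above the filter. Both treated arrays lay below both control arrays in 35 of the 76 genes (46.1%), beside 24.1% of all genes above the filter. Both lay above both control arrays in 5 genes (6.58%), beside 20.3% of all genes, and in 36 genes the groups overlapped. The difference was below 0 at both days in 43 genes (56.6%, beside 31.1% of all genes) and above 0 at both days in 7 (9.21%, beside 26.7%). The remaining 26 genes (34.2%, beside 42.1%) had opposite signs at the 2 days. Members share arrays and regulation, so these shares are a description and were given no test.

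**Figure D1:**
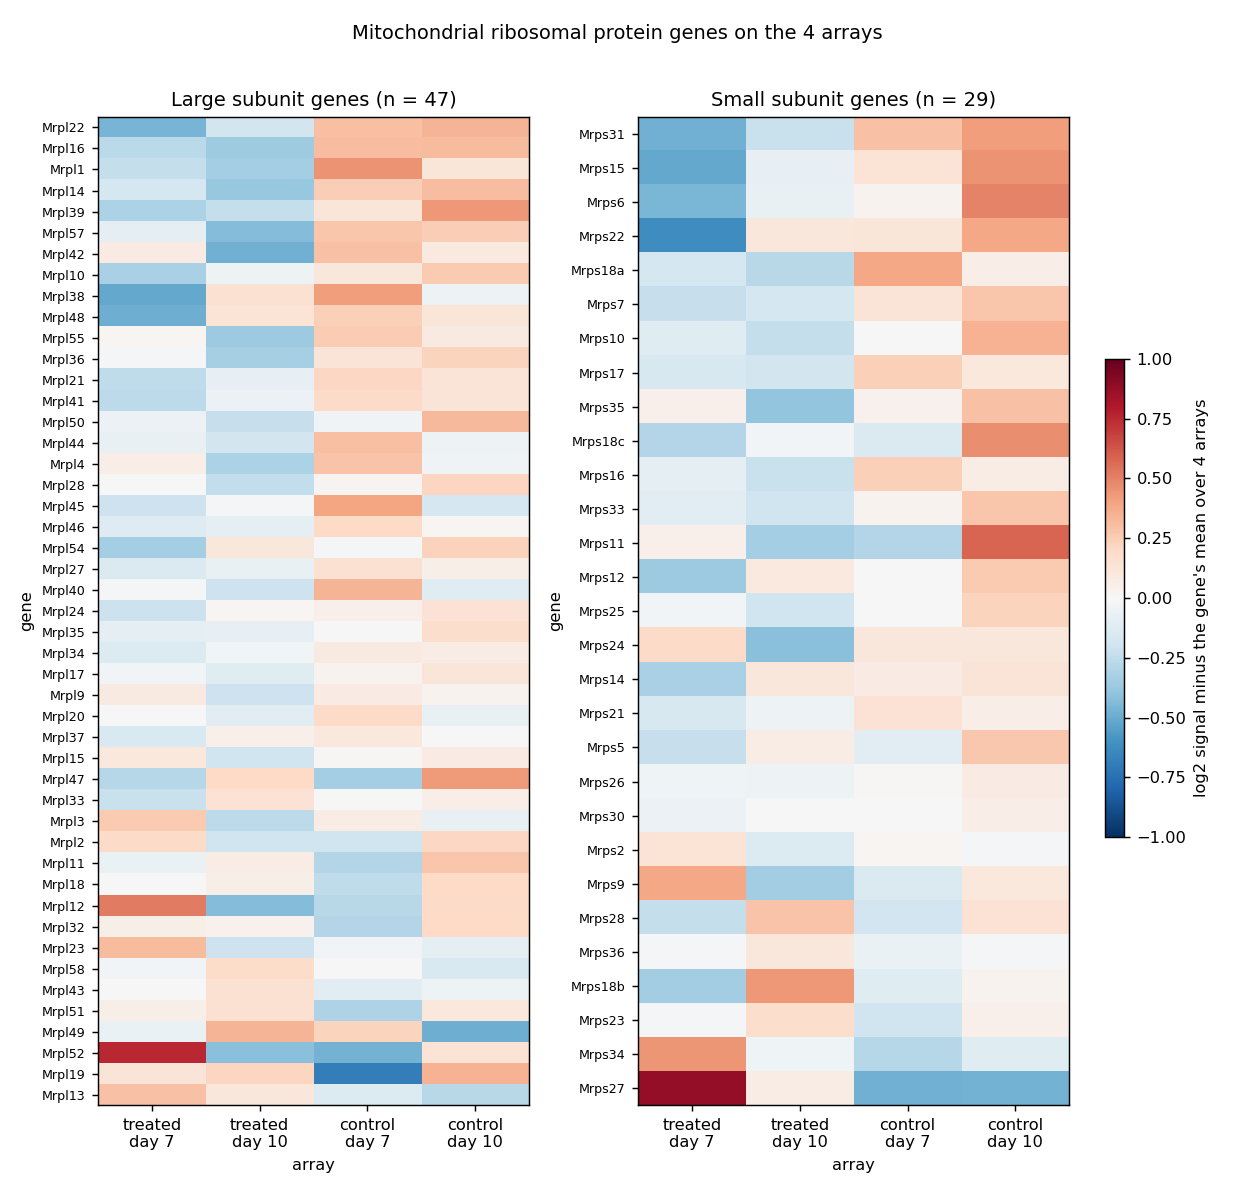
Log2 signal of each of the 47 large subunit and 29 small subunit genes on the 4 arrays (columns, treated at the left), minus the gene's own mean over the 4 arrays. Blue is below and red above that mean, and blue prevails in the treated columns, in which 35 of 76 genes lay below both control arrays.

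limma's test over both days called 0 of the 76 genes at a Benjamini-Hochberg adjusted p under 0.05, with a lowest adjusted p of 0.274 for Mrps31. Among all 11993 genes it called 0.283% lower and 0.375% higher. At an unadjusted p under 0.05, limma gave 7 members lower (9.21%, beside 6.15% of all genes) and 1 higher (1.32%, beside 5.93%). With day as a block, 0 members were called, 4 had an unadjusted p under 0.05, and the lowest adjusted p was 0.408. The differences were small in size: 0 genes lay 2-fold lower at day 7 (beside 5.16% of all genes) or at day 10 (beside 4.91%).

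Across the large subunit, 21 of 47 genes (44.7%) lay lower and 2 (4.26%) higher without overlap of the groups, beside 24.1% and 20.3% of all genes above the filter, and the median log2 difference was -0.20. The 2 days gave medians of -0.22 (day 7) and -0.19 (day 10), beside -0.06 and 0.01 over all genes above the filter. Genes were also split by gene number alone, those numbered as in bacteria against the rest, with no check of origin. The median was -0.15 in the 27 large subunit genes numbered as in bacteria, and -0.22 in the other 20. The lowest of the large subunit was Mrpl22, whose protein lines the exit tunnel. Mrpl22 had 1260.1 units at day 7 and 1529 at day 10 in treated livers, against 2138 and 2197 units in control livers. Both treated arrays lay below both control arrays, with a log2 difference of -0.64 ± 0.21 (SE, limma adjusted p = 0.314). Mrpl16, a protein next to the site where peptide bonds form, had 2486 and 2337 units in treated livers, against 3699 and 3736 in control livers. The arrays of a group were close to each other and apart from those of the other group, with a log2 difference of -0.63 ± 0.20 (limma adjusted p = 0.292).

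Mrpl1, a protein of the side stalk near which spent tRNAs leave, had 543 and 506 units in treated livers, against 873 and 697 in control livers. Its log2 difference was -0.57 ± 0.23 (SE, limma adjusted p = 0.405), without overlap of the groups, and -0.94 by the mean of its probe sets. Mrpl14, which lies at the face joined to the small subunit, had 2734 and 2380.5 units in treated livers, against 3657 and 3829 in control livers. Mrpl39, a protein added in mitochondria, had 2249 and 2379.8 units in treated livers, against 3047 and 3773 in control livers. Both genes, whose promoters with the NRF1 letters are shown above, had a log2 difference of -0.55 (SE 0.20 for Mrpl14 and 0.21 for Mrpl39; limma adjusted p = 0.362 and 0.385). Mrpl57, likewise lower on both treated arrays, had a log2 difference of -0.52 ± 0.22 (limma adjusted p = 0.413), and -0.22 by the mean of its probe sets.

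Higher values in the large subunit were fewer. Mrpl13, which binds the ribosomal RNA, had 4309 and 3806 units in treated livers, against 3202 and 2898 in control livers. The groups did not overlap and the log2 difference was 0.41 ± 0.20 (SE, limma adjusted p = 0.49), and 0.06 by the mean of its probe sets. Mrpl43 had 1815 and 2016 units in treated livers, against 1675 and 1749.6 in control livers (log2 0.16, limma adjusted p = 0.794), again without overlap. Mrpl51 was higher at both days, with 2704 and 2892 units in treated livers, against 2098 and 2798 in control livers, but its groups overlapped (log2 0.21, limma adjusted p = 0.764). These 3 were the large subunit genes above 0 at both days.

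The regions of the large subunit, grouped by role after the values were known, did not all have the same median. The lists of proteins were not checked for completeness. For the central protuberance 4 proteins were listed (Mrpl38, Mrpl40, Mrpl46, Mrpl48), with a median of -0.54 at day 7 and -0.03 at day 10. This list left out Mrpl18, Mrpl52 and Mrpl58. Their log2 differences at day 7 and day 10 were 0.26 and -0.15 (Mrpl18), 1.22 and -0.55 (Mrpl52), and -0.02 and 0.34 (Mrpl58). By the brightest probe set Mrpl38 and Mrpl48 lay at 0.20 and 0.02 at day 10. Their other probe sets above the filter lay lower on that day, at -0.84 for Mrpl38 and at -0.81 and -0.21 for Mrpl48. At day 7 these other probe sets lay at 0.17 for Mrpl38 and at -0.61 and -0.64 for Mrpl48. How far the low day 7 and the higher day 10 value hold for the whole region was not tested. The 3 proteins of the stalk that recruits translation factors (Mrpl10, Mrpl11, Mrpl12) had a median of 0.23 at day 7 and -0.32 at day 10. The 6 proteins around the exit tunnel (Mrpl17, Mrpl22, Mrpl23, Mrpl24, Mrpl45, Mrpl47) had medians of -0.16 and -0.18. In the 4 proteins near the peptidyl transferase centre (Mrpl2, Mrpl3, Mrpl16, Mrpl27) the medians were -0.06 and -0.30. Within this last group Mrpl16 lay at -0.63 over both days, whereas Mrpl2 and Mrpl3 each lay at -0.00. Mrpl2 had 3474 and 2649.9 units in treated livers, against 2638 and 3499.9 in control livers, so that its treated array was the higher at day 7 and the lower at day 10.

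Across the small subunit, 14 of 29 genes (48.3%) lay lower and 3 (10.3%) higher without overlap, beside 24.1% and 20.3% of all genes above the filter. The 29 were grouped by name. The 14 include Mrps18a and Mrps30, which an alternative below counts in the large subunit, and the 3 include Mrps36, which it leaves out. The median log2 difference was -0.23, and -0.12 without the day 10 control array. The days gave -0.12 (day 7) and -0.29 (day 10), beside -0.06 and 0.01 over all genes above the filter. The difference between the days was not tested. With the arrays scaled to equal medians the day 7 median was -0.031, and that of all genes at day 7 was not computed under this scaling. Split by gene number alone, the 16 genes numbered as in bacteria had a median over both days of -0.30. Of these, 8 were lower (50%) and 0 higher without overlap. In the other 13 the median was -0.10, with 6 lower (46.2%) and 3 higher (23.1%). The number of a gene does not settle its origin, and the difference between the 2 classes was not tested. Mrps31, a protein added in mitochondria, was the lowest of all 76 genes by the brightest probe set, with 984 and 1177 units in treated livers, against 1688 and 1835 in control livers. Its log2 difference was -0.71 ± 0.21 (SE, limma adjusted p = 0.274), a signal 1.64 times lower, and it was the only member at least 1.5-fold lower at both days. By the mean of its probe sets the log2 difference was -0.27.

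Mrps15, a binder of small subunit ribosomal RNA, had 472 and 635 units in treated livers, against 739 and 919.8 in control livers (log2 -0.59 ± 0.26, limma adjusted p = 0.433). Mrps6, the counterpart of bacterial S6, had 407 and 529.9 units in treated livers, against 572 and 785 in control livers (log2 -0.53 ± 0.27, limma adjusted p = 0.508). In both, the arrays of the groups did not overlap and day 10 was the higher day in each group. Mrps22, in which mutations are known to cause mitochondrial disease in humans, had 818 and 1357 units in treated livers, against 1362 and 1644 in control livers. Its day 10 treated array, at 1357, lay just under the day 7 control array, at 1362 (log2 -0.51 ± 0.30, limma adjusted p = 0.554).

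The 3 genes Mrps18a, Mrps18b and Mrps18c are relatives of 1 bacterial protein, and the protein of Mrps18a is known to sit in the large subunit despite its name. Mrps18a had 1141 and 1062 units in treated livers, against 1686 and 1346 in control livers, with no overlap (log2 -0.45 ± 0.22, limma adjusted p = 0.483). Mrps18c had 851 and 1026 units in treated livers, against 944 and 1439.6 in control livers (log2 -0.32 ± 0.27, limma adjusted p = 0.689). Mrps18b lay above its control array at day 10 and below it at day 7, with 1026 and 1762 units in treated livers, against 1197 and 1335 in control livers (log2 0.09 ± 0.30, limma adjusted p = 0.933).

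Mrps27 stood at the opposite end of the family. Its protein belongs to the pentatricopeptide repeat proteins, a class that binds RNA. Mrps27 had 889.7 and 510.5 units in treated livers, against 346 and 349 in control livers, a 2.57-fold difference at day 7 and a 1.46-fold one at day 10. Both treated arrays lay above both control arrays, with a log2 difference of 0.95 ± 0.32 (SE, limma adjusted p = 0.323), and the gene had 1 probe set above the filter. Mrps34, a protein added in mitochondria, had 3570.2 and 2556 units in treated livers, against 2163 and 2420.5 in control livers (log2 0.40 ± 0.24, limma adjusted p = 0.569). Almost all of that difference was at day 7, with log2 0.72 on that day, against 0.08 at day 10. Mrps36, now known as a component of the oxoglutarate dehydrogenase complex and not of the ribosome, had 833 and 913 units in treated livers, against 809 and 833 in control livers (log2 0.09, limma adjusted p = 0.897). Mrps23 was higher at each day with overlapping groups (log2 0.15, limma adjusted p = 0.819).

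**Figure D2:**
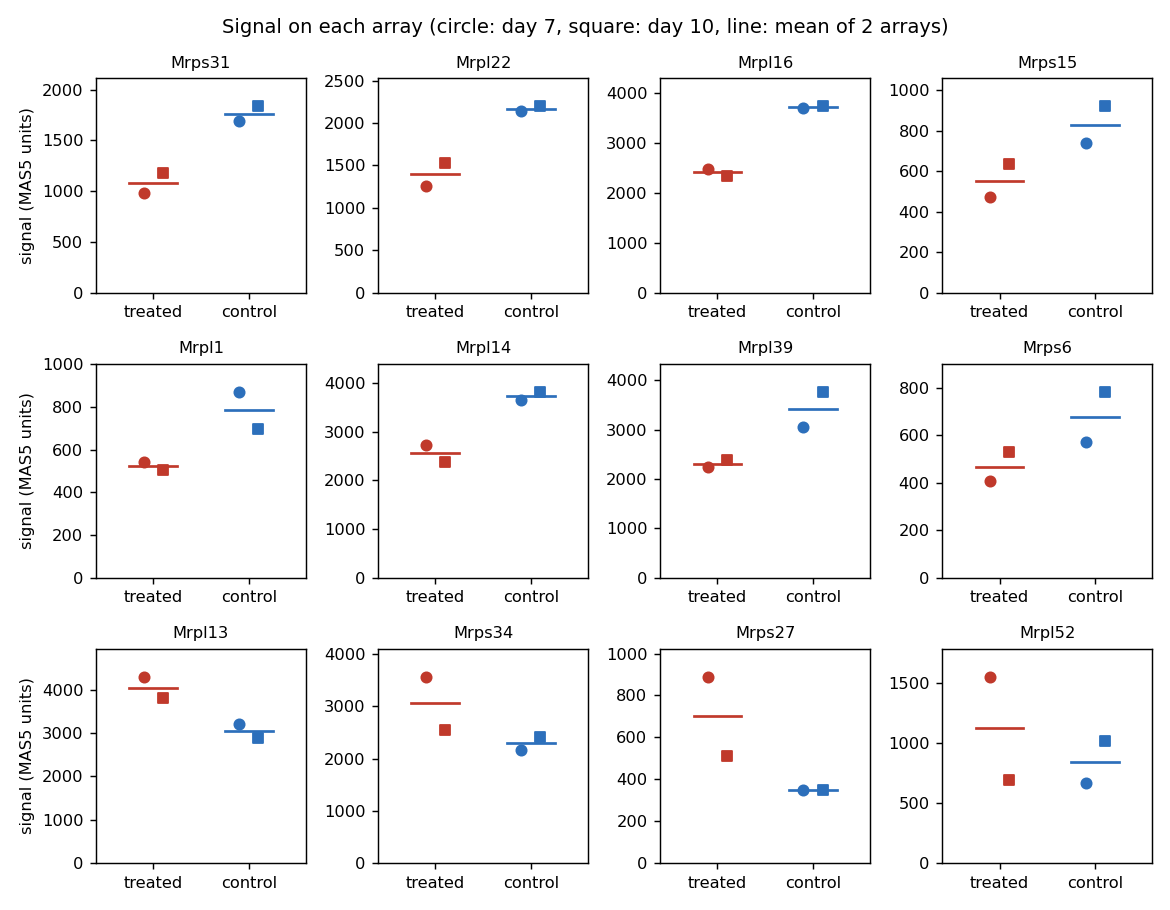
Signal on each array for the lowest members over both days (upper rows), for Mrpl13, Mrps34 and Mrps27 among the highest, and for Mrpl52, whose days had opposite signs (bottom row), with treated arrays left of control arrays (circles are day 7, squares day 10, lines the mean of 2 arrays) and each axis starting at 0. In Mrps31 the treated arrays, at 984 and 1177 units, sit under the control arrays, at 1688 and 1835, and in Mrps27 the order is the opposite. Signals are of the brightest probe set, and the other probe sets of Mrpl52 above the filter were higher at both days.

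At a single day there was 1 array per group and so no test. At day 7, 8 members were at least 1.5-fold lower (10.5%, beside 15.4% of all genes above the filter) and 5 at least 1.5-fold higher (6.58%, beside 12.1%). At day 10, 9 were 1.5-fold lower (11.8%, beside 13.5%) and 1 was 1.5-fold higher (1.32%, beside 14.6%). These shares were not tested against those of the array. Mrps31 alone was 1.5-fold lower at both days (1.32%, beside 4.15%), and 0 members were 1.5-fold higher at both days (beside 4.1%). The 2 members past 2-fold at day 7 were Mrps27 and Mrpl52, both higher (2.63%, beside 4.6%), and 0 members were 2-fold higher at day 10 (beside 5.84%).

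Some members lay on opposite sides of their control arrays at the 2 days. Mrpl52, added in mitochondria, had 1553 units at day 7 and 693 at day 10 in treated livers, against 665 and 1016 in control livers, log2 differences of 1.22 and -0.55. Its other probe sets above the filter were higher at both days, at 0.49 and 0.17, and at 0.13 and 1.02. Mrpl12, the stalk protein that is also known to bind mitochondrial RNA polymerase, had 1800.4 and 934 units in treated livers, against 1038 and 1438 in control livers, log2 differences of 0.79 and -0.62. Mrps11 had 306 and 234 units in treated livers, against 242 and 444 in control livers. Mrpl38 of the central protuberance had 534 and 844 units in treated livers, against 1014 and 732 in control livers. By the brightest probe set of Mrpl52, Mrpl12 and Mrps11 the treated array was the higher at day 7 and the lower at day 10. For Mrpl38 the order was the opposite, but its other probe set above the filter gave log2 differences of 0.17 and -0.84. That of Mrps11 gave 0.42 and -0.36, in the order of its brightest. Across the 76 genes the differences at day 7 and day 10, which share no array, correlated with r = 0.136 and Spearman's rho = 0.145 (n = 76 genes), beside r = 0.348 over the 11993 genes. Genes are not independent replicates, and no p is given.

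**Figure D3:**
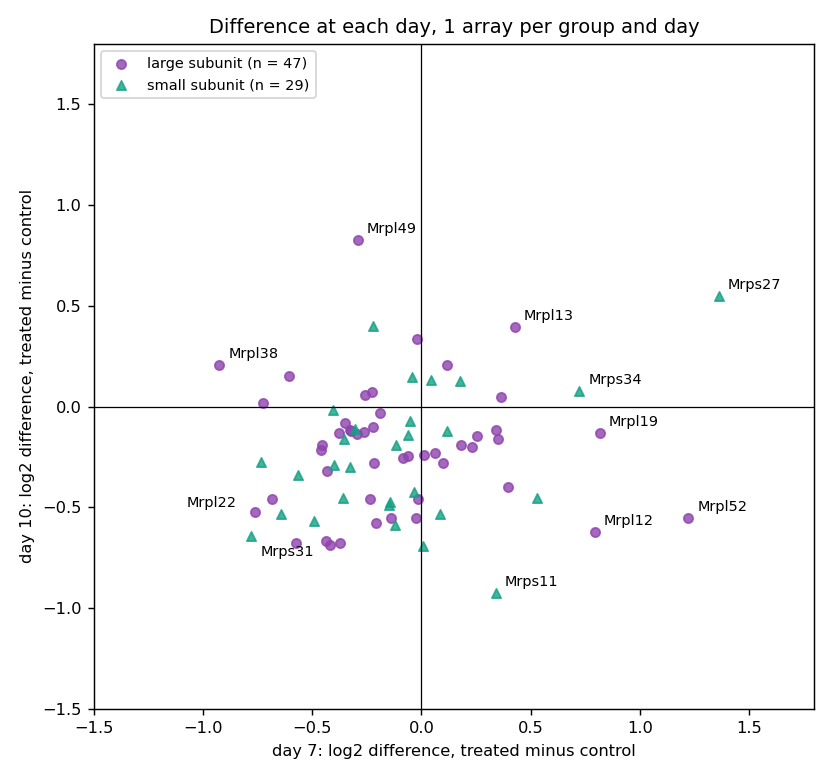
Log2 difference of each of the 76 genes at day 7 (horizontal) and day 10 (vertical), treated minus control, with large and small subunit marked apart. The lower left holds 43 genes, the upper right 7, and 26 have opposite signs.

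Other probe sets of the same genes gave a further reading of the same RNA. In 35 members at least 1 more probe set lay above the filter, 55 in all. Of these 55, 24 (43.6%) had both treated arrays below both control arrays and 5 (9.09%) had them above, beside 23.5% and 20.4% of 22518 probe sets above the filter, and their median log2 difference was -0.20. In a limma fit over all probe sets, 0 of the 55 passed, with a lowest adjusted p of 0.284 for Mrpl58. For members that were lower without overlap by their brightest probe set, 16 of 19 other probe sets were lower over both days. Of the 19, 11 were lower and 1 was higher without overlap. They were read on the same arrays that picked these members, and the share over all genes picked alike was not computed. In 18 members the probe sets had opposite signs over both days. Mrpl13 was one of these, with log2 differences of -0.04 and -0.51 by its 2 other probe sets, against 0.41 by the brightest. Another was Mrpl49, with -0.74 by its other probe set, against 0.27 by the brightest. Also among them was Mrpl58 (also called Ict1), a peptidyl-tRNA hydrolase built into the large subunit, with -0.77 by its other probe set, against 0.16 by the brightest. Mrps23 had -0.42 by its other probe set, against 0.15.

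**Figure D4:**
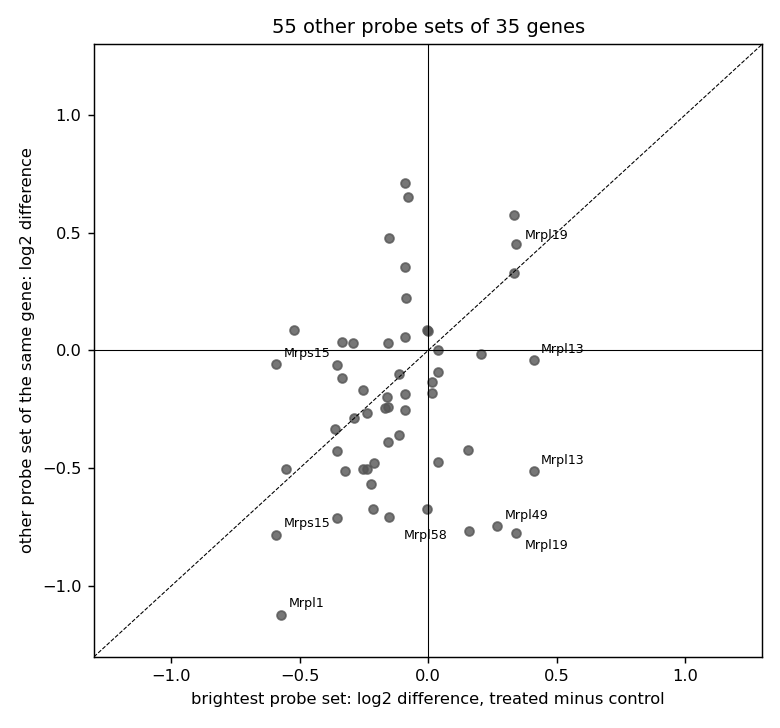
Log2 difference over both days of the 55 other probe sets above the filter (vertical) against that of the brightest probe set of the same gene (horizontal), treated minus control, for 35 genes, with the line of equal values dashed. Points in the upper left and lower right are probe sets whose sign differs from the brightest, as in 18 members.

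The other genes of mitochondrial translation were read from lists, and limma called 0 of their members. Of the 4 other proteins counted in mitochondrial ribosomes, Ptcd3 and Chchd1 (50%) lay lower and 0 higher without overlap, beside 24.1% and 20.3% of all genes. Ptcd3, a pentatricopeptide repeat protein, had a log2 difference of -0.39 (limma adjusted p = 0.508) and Chchd1 one of -0.16 (limma adjusted p = 0.779). The groups overlapped in Gadd45gip1 (log2 -0.42, limma adjusted p = 0.632) and in Dap3 (log2 0.19, limma adjusted p = 0.771), which was above 0 at both days. Of 12 translation factors above the filter, 6 (50%) lay lower and 0 higher, beside the same 24.1% and 20.3%, and the median was -0.23. The elongation factor gene Tufm had log2 differences of -1.07 at day 7 and -0.41 at day 10 (limma adjusted p = 0.309 over both). The initiation factor gene Mtif3 was at the floor of the scale on the day 10 treated array, at least 6.72-fold lower than on the control array of that day. Of 14 mitochondrial aminoacyl-tRNA synthetases, which load tRNAs, 8 (57.1%) lay lower and 0 higher, again beside 24.1% and 20.3%, with a median of -0.34. Nars2 and Tars2 each had a log2 difference of -0.87 (limma adjusted p = 0.232 and 0.433).

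Of 24 genes above the filter that assemble the mitochondrial ribosome, 4 (16.7%) lay lower and 8 (33.3%) higher without overlap, beside 24.1% and 20.3% of all genes, with a median of -0.03. Mpv17l2, an assembly factor of the inner membrane, had a log2 difference of 1.95 (limma adjusted p = 0.186). Clpx, the unfolding subunit of a mitochondrial protease, had one of -1.27 (limma adjusted p = 0.422). Among 8 genes for transcription and copying of mitochondrial DNA 0 lay lower and 1 (12.5%) higher, beside 24.1% and 20.3% of all genes. Their median was 0.05. The one higher was the helicase gene Twnk (log2 0.37, limma adjusted p = 0.544), and the groups overlapped in the polymerase gene Polg (log2 -0.05, limma adjusted p = 0.947). Among 9 regulators of mitochondrial biogenesis 2 (22.2%) lay lower and 4 (44.4%) higher, beside 24.1% and 20.3% of all genes, with a median of 0.10. Ppargc1a, a coactivator that drives such genes, had a log2 difference of 0.60 (limma adjusted p = 0.526), and its relative Pprc1 one of 0.75 (limma adjusted p = 0.370).

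The subunits of oxidative phosphorylation, whose core members the mitochondrial ribosome makes, were lower without overlap in 49 of 71 genes (69%) and higher in 1 (1.41%), beside 24.1% and 20.3% of all genes. These are nuclear genes of the complexes, with a median of -0.12 at day 7 that lay further down at day 10, at -0.49. The complex I gene Ndufs5 lay at -1.11 and the complex III gene Uqcrc1 at -0.87 over both days (limma adjusted p = 0.146 and 0.166). The proteins of the cytosolic ribosome lay in the other direction, with 35 of 44 genes (79.5%) higher and 2 (4.55%) lower without overlap, beside 20.3% and 24.1%, and a median of 0.42. Rpl41 lay at 0.99 and Rplp2 at 0.90 (limma adjusted p = 0.207 and 0.260). The difference between these lists and the mitochondrial ribosomal proteins was not tested, since all were read on the same 4 arrays.

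**Figure D5:**
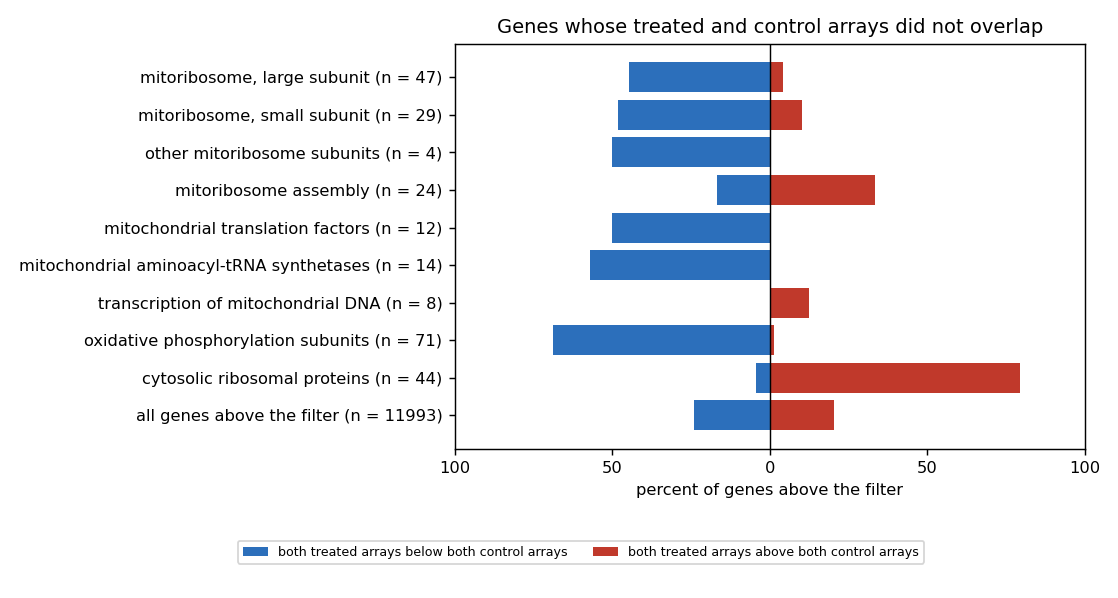
Percent of genes above the filter with both treated arrays below (blue, to the left) or above (red, to the right) both control arrays, by list. In the large subunit 44.7% were lower and 4.26% higher, in the small subunit 48.3% and 10.3%, beside 24.1% and 20.3% of all 11993 genes.

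Several markers of macrophages and neutrophils passed the test as higher in treated livers. Over 10 of 10 Kupffer cell and macrophage markers the summed signal was 39428 units at day 7 and 40802 at day 10 in treated livers, against 16314 and 9097 in control livers. All 10 lay higher without overlap, beside 20.3% of all genes above the filter. limma called 3 of them higher, beside 0.375% of all genes. The 7 neutrophil markers summed to 8610 and 8513 units in treated livers, against 2944 and 3307 in control livers, with Camp at the floor on all arrays. Of the 6 above the filter 2 were called higher and 3 lay higher without overlap (50%, beside the same 20.3%). Opposite signs at the 2 days were seen in 2, beside 42.1% of all genes. B and plasma cell markers (4 of 5 on the array) summed to 2715 and 2542 units in treated livers, against 1714 and 1852 in control livers. Of these 4 markers 1, at log2 3.30, was called higher, and 2 lay lower without overlap (50%, beside 24.1% of all genes). The list median was -0.23. The 6 hepatocyte markers on the array, which include the defining genes of the tissue, summed to 376379 and 338381 units in treated livers, against 319772 and 310352 in control livers. Of these hepatocyte markers 2 lay higher (33.3%, beside 20.3% of all genes) and 0 lower (beside 24.1%) without overlap, and 0 were called. The part of these cells in the lower signals of the mitochondrial ribosomal proteins was not tested. The 4 arrays had median signals between 210.5 and 223.9 units and correlated pairwise with r from 0.923 to 0.948. Met itself had 2432.5 and 2828.7 units in treated livers, against 975.5 and 1270.8 in control livers (log2 1.24 ± 0.23, limma adjusted p = 0.103). The place of its probes relative to the deleted exon was not used here, so Met does not check the deletion.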

How the data were processed

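Total liver RNA (6 ug a pool) was hybridised to 4 Affymetrix mouse arrays, 1 pool per group and day. Per the submitters' processing notes MAS5 gave the deposited intensity (signal) values (version not given in the sources used here). All value columns belonged to samples, and no pair of arrays held over 0.118% identical values.

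Of 45101 probe sets, 64 were controls; 34945 of the rest had a single symbol in the platform annotation, 932 several and 9160 none. The 4 probe sets that carry a member symbol beside another symbol were not used, and 2 of 78 family genes in RefSeq were not analysed here. All 76 member symbols matched RefSeq (GRCm38.p6) by Entrez ID. Of the members 8 were measured by probe sets that may bind other transcripts. Signals under the 25th percentile (64.8) were raised to it before log2, and the brightest probe set stood for each gene. The test covered genes whose mean log2 exceeded 7.67, the median over probe sets.

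Groups (2 arrays against 2, no day term, 2 residual degrees of freedom) were compared by the two-sided test of limma 3.58.1 (R 4.3.3) with lmFit and a trended eBayes, and p-values were adjusted by Benjamini-Hochberg over 11993 genes (threshold 0.05). The fit was tested on simulated data with log2 changes far larger than those of the members. That test cannot tell whether changes of the size seen in the members would be called. Single days were described by a 1.5-fold rule. Members, lists and roles were chosen with earlier results of these data known. Named were, in each subunit, the 5 lowest and up to 5 highest members of 1 sign at both days, the 4 members whose days differed most, the Mrps18 genes, members whose probe sets disagreed in sign, and the leading genes of each related list. Mrpl2, Chchd1, Dap3 and the members of role groups fall outside that rule and were named after their values were seen. The promoter letters were chosen after several other strings had been tried. Day is shared by the arrays of both groups, and with 2 pairs its fit as a block is an alternative. Other alternatives were 2 scalings, 2 floors, other filters, the mean of or each other probe set, no trend, and leaving out each array. Python 3.11.15 with matplotlib 3.10.9 drew the figures.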

Additional observations from a re-analysis of the deposited data

Results flagged for a closer look

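In 15 of the named members the difference between treated and control livers had opposite signs at the 2 days, as it had in 26 of 76 members and in 42.1% of all genes above the filter. With 1 array per group and day, the difference between the days was not tested. The log2 difference at day 10 minus that at day 7 was -1.77 for Mrpl52, -1.42 for Mrpl12, -1.26 for Mrps11, -0.98 for Mrps9, -0.95 for Mrpl19 and -0.44 for Mrpl11. It was -0.38 for Mrpl15, -0.37 for Mrpl3, -0.29 for Mrpl47 and -0.24 for Mrps2, all higher in treated livers at day 7 and lower at day 10. In the other direction it was 1.13 for Mrpl38, 1.12 for Mrpl49, 0.62 for Mrps18b, 0.36 for Mrpl58 and 0.30 for Mrpl33. All are values of the brightest probe set. Other probe sets above the filter each kept their sign at both days in Mrpl52, Mrpl19, Mrpl47, Mrpl49, Mrpl58 and Mrpl33. In Mrpl38 (0.17 at day 7 and -0.84 at day 10) and Mrps2 (-0.14 and 0.30) they turned the opposite way. In Mrps11 the other probe set turned the same way (0.42 and -0.36). In Mrpl11, Mrpl15 and Mrpl3 some turned the same way and others did not, and in Mrps9 none did.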

How the results depend on the processing

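The count of members called by limma was 0 at an adjusted p under 0.05 under every alternative run, including day as a replicate block (0, lowest adjusted p 0.408) and each array left out (0 to 0). All 4 arrays gave 0 at an adjusted p under 0.1 too; that threshold was not run with the other alternatives, over which the lowest adjusted p was 0.0633, for Mrps27 without the day 10 treated array. Leaving out an array leaves 1 in its group, which is then assumed to vary like the other group. With each array left out in turn, the large subunit median ran from -0.20 to -0.15 (-0.15 without the day 10 control array). The small subunit median ran from -0.28 to -0.12 (-0.12 without the day 10 control array). With fewer arrays to separate, 27 to 29 large and 14 to 20 small subunit genes lay lower without overlap, and 4 to 10 and 3 to 6 higher. The shares of all genes were not computed with an array left out, so these counts cannot be set against the array. Scaling the arrays to equal medians moved the large subunit median to -0.13 at day 7 and -0.25 at day 10. That of the small subunit at day 7 moved to -0.031, and 17 large and 10 small subunit genes lay lower without overlap. The share and the medians of all genes at each day were not computed under this scaling. By the second brightest probe set, an alternative chosen after seeing the data, 11 of 26 large and 4 of 9 small subunit genes lay lower without overlap. Of all probe sets above the filter 23.5% did so. With Mrps18a and Mrps30 counted in the large subunit and Mrps36 left out, also chosen after seeing the data, the medians were -0.20 (large) and -0.24 (small). The 2-fold rule left 2 members at day 7, against 13 by the 1.5-fold rule, and 0 at day 10, against 10. Signs of single genes turned by other probe sets: Mrpl13 to -0.042 and -0.51, Mrpl51 to -0.017, Mrps23 to -0.42, Mrps11 to 0.031, Mrpl11 to -0.18 and -0.13, Mrpl15 to 0.057, 0.71 and 0.35, Mrpl17 to 0.48, Mrpl19 to -0.77, Mrpl21 to 0.036, Mrpl3 to 0.088, Mrpl33 to 0.65, Mrpl47 to 0.22, Mrpl49 to -0.74, Mrpl57 to 0.088, Mrpl58 to -0.77, Mrps2 to 0.081, Mrps5 to 0.030, and Mrps9 to -0.090, -3.3e-05 and -0.47. By the mean of probe sets, Mrps23 turned to -0.049, Mrpl15 to 0.16, Mrpl19 to -0.015, Mrpl33 to 0.29, Mrpl49 to -0.24, Mrpl58 to -0.30, Mrps2 to 0.041, Mrps9 to -0.13 and Polg, which copies mitochondrial DNA, to 0.076. By equal medians, Mrpl3 turned to 0.013 and Mrps2 to 0.017. With an array left out, the value spanned 0 in Mrpl51 (-0.0012 to 0.41), Mrpl52 (-0.25 to 0.92), Mrpl12 (-0.39 to 0.56), Mrps11 (-0.73 to 0.14), Mrps18b (-0.30 to 0.48), Mrpl11 (-0.27 to 0.30), Mrpl15 (-0.24 to 0.061), Mrpl19 (-0.17 to 0.86), Mrpl3 (-0.27 to 0.26), Mrpl33 (-0.26 to 0.10), Mrpl47 (-0.47 to 0.30), Mrpl49 (-0.087 to 0.62), Mrps2 (-0.14 to 0.14), Mrps5 (-0.35 to 0.037), Mrps9 (-0.33 to 0.40) and Polg (-0.14 to 0.035). Without the day 7 treated array limma called Ndufs5 (-1.34), Uqcrc1 (-0.92), Rpl41 (1.18), Rplp2 (1.12) and Met (1.35), and without the day 10 treated array Clpx (-2.15). The cause of these changes was not tested. Of the other 755 values, the 667 of single genes kept their direction and their side of the threshold. The 88 medians or counts stayed close to the main value. For a median this meant within the spread between arrays of a group, and for a count within a ratio of 1.5. A further 16 medians or counts moved by more than that, and 0 medians turned in sign. All values are limited in precision by there being 4 arrays.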
